A study of Mus musculus with 36 samples.

Results

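The genes described here are 10 genes known for the identity and survival of primordial germ cells (PGCs): *Prdm1*, *Prdm14*, *Tfap2c*, *Nanos3*, *Dnd1*, *Dazl*, *Ddx4*, *Kit*, *Dppa2* and *Dppa4*. They were taken by gene symbol with no filter on values, though the list was chosen with earlier results of these data known. All 10 were found, among 57126 genes in the PGC tables and 56262 in the gonad tables. The study asked how intrauterine hyperglycemia (IUHG) changes fetal germ cells in mice, and its RNA-seq covered 36 libraries in 12 groups of 3. Pregnant mice of the IUHG groups received 120 mg/kg of streptozotocin (STZ) at day 3.5, and were taken as diabetic when blood glucose was above 14 mM on day 6.5. All fetuses were labelled wild type, although those giving PGCs carried the *Oct4-EGFP* transgene named below. Whole gonads came from female ICR fetuses at E13.5 (days after conception), with pooled gonads in each of 6 libraries. PGCs were sorted for the green signal of an *Oct4-EGFP* transgene, carried by the sire, in 30 libraries from pooled fetuses of 3 stages, E12.5, then E13.5, then E16.5. Labels of the E12.5 libraries give no sex, and those of the later stages are female or male. The reporter is driven by sequences of *Pou5f1* (*Oct4*), so a cell had to have made or kept EGFP to be sorted.

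PGCs are set aside in the early embryo by the transcription factors PRDM1 (BLIMP1), PRDM14 and AP2γ, the product of *Tfap2c*, which shut off the somatic programme and return the cells to a pluripotency-like state. They then move into the gonad, where the receptor KIT and its ligand from somatic cells, and the RNA-binding proteins NANOS3 and DND1, keep them alive. In the gonad, DAZL and the RNA helicase DDX4 (mouse vasa homolog) mark cells that can respond to the sex of the gonad, after which female germ cells enter meiosis and male germ cells stop dividing. DPPA2 and DPPA4 form a chromatin-binding pair found in pluripotent and germ cells.

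Expression was read as TPM, a unit that corrects for gene length and gives all libraries an equal sum, so levels of different genes can be compared. The aligned bases behind the values, in gigabases, had group medians of 7.41 and 7.81 at E12.5 (control and IUHG), 5.27 and 6.12 in E13.5 females, 7.44 and 7.30 in E13.5 males, 5.11 and 5.10 in E16.5 females, and 4.34 and 4.11 in E16.5 males. In gonads these medians were 4.65 and 3.90 gigabases. How far chance in counting reads blurs a single gene cannot be worked out from TPM. Groups were compared with limma on log2(TPM + 1), with p adjusted over all genes tested, which were those with a mean of at least 1 TPM in a compared group. A PGC gene was called at an adjusted p under 0.01, where taking the adjusted p was a choice made here, and a log2 fold change beyond 1 in size, and a gonad gene at an adjusted p under 0.05 and a log2 fold change of at least 1 in size. On this scale the fold of a gene at a few TPM is understated. In bulk RNA, fewer cells of a kind and less RNA per cell cannot be told apart.

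Germ cell transcripts were present in every library: *Dazl* was at or above 432 TPM and *Ddx4* at or above 175 TPM in all 30 PGC libraries. Of 5 further germ cell markers 4 were in the tables (*Rnf17*, *Piwil2*, *Tdrd5* and *Tdrd9*), and all 4 were above 0 in every library. *Pou5f1*, whose sequences drive the reporter, was at 175 ± 24.5 TPM (mean ± SD, n = 3) in E12.5 controls but at 8.18 ± 4.67 TPM in E16.5 female controls. Libraries of 3 groups stood apart from the rest of their group. IUHG library 3 of E13.5 female PGCs had a Pearson r of 0.921 and 0.927 with the other libraries of its group over 15674 genes, and these had an r of 0.977 with each other. Log2 fold changes of the members in E13.5 females are therefore also given without it, while values of other genes there include it. In the E16.5 female IUHG group, libraries 1 and 2 had an r of 0.902 with each other and of 0.957 and 0.965 with library 3. Control library 1 of the gonads, labelled female, held the Y-linked transcript *Eif2s3y* at 27.5 TPM, which the other 5 gonad libraries listed at 0. Its 4 Sertoli cell markers summed to 262 TPM, mostly *Amh* at 178 TPM, against 9.15 to 11.4 TPM in the others. Log2 fold changes of the members in gonads are given with and without it, while values of other gonad genes include it.

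The 10 genes lie on 9 chromosomes, and only *Dppa4* and *Dppa2* are neighbours. In the PGC tables *Dppa4* (ENSMUSG00000058550.16) runs from 48104098 to 48114600 and *Dppa2* (ENSMUSG00000072419.6) from 48124271 to 48140086 on the + strand of chromosome 16. *Tfap2c* (ENSMUSG00000028640.12) lies on chromosome 2 from 172391513 to 172400542, *Nanos3* (ENSMUSG00000056155.7) on chromosome 8 from 84900362 to 84903181, and *Kit* (ENSMUSG00000005672.13) on chromosome 5 from 75735576 to 75817382. The authors name mm39 for PGC reads and mm9 for gonad reads, while positions in the gonad tables were those of a GRCm38 annotation for 48.1% of genes by start or end, against 1.15% in the PGC tables. Since AP2γ and PRDM14 bind DNA, promoters of the members were searched for their motifs and for an E-box. RefSeq promoters of 300 bases (GRCm38.p6) were used for 5 of the 10: *Prdm1*, *Nanos3*, *Dazl*, *Ddx4* and *Kit*. The TFAP2 motif GCCNNNGGC, on either strand, was in 2 of these 5, and in 16.6% of 32851 promoters of that length. The 2 are shown because *Nanos3* and *Kit* are also members called under IUHG. Capitals mark the motif, which starts at base 30 in the first and at base 117 in the second.
Nanos3, chr8:84176503-84176802, - strand: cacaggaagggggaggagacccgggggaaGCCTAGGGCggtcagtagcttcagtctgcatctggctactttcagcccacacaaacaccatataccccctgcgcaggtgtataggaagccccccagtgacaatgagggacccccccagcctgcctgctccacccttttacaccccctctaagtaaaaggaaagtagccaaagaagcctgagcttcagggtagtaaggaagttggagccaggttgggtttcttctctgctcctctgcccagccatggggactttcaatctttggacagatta
Kit, chr5:75574737-75575036, + strand: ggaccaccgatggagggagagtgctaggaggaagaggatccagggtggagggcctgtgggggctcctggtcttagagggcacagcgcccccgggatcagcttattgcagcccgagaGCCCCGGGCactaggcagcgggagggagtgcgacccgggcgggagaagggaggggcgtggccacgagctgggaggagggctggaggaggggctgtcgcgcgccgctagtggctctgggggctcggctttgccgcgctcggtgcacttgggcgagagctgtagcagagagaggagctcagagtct
The E-box CACGTG, whose letters read the same on both strands, was in the *Ddx4* promoter and in 7.15% of all promoters. The PRDM14 motif GGTCTCTAA, on either strand, was in none of the 5 and in 0.256% of all promoters. CpG pairs also set the promoters apart: *Nanos3* had 3, *Prdm1* and *Kit* 20 each, *Dazl* 28 and *Ddx4* 38, against a median of 7 over all promoters. A motif match here is a description of letters in a window and not a binding site.

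In control PGCs, the members fell into several courses over development. The fate factors *Prdm1*, *Prdm14* and *Tfap2c* and the chromatin gene *Dppa2* had their highest control means at E12.5 and were near 0 in E16.5 females. *Dnd1* and *Dppa4* parted between the sexes, with means of 1152 and 1027 TPM in E16.5 males but of 21.3 and 54.3 TPM in E16.5 females. In males the rise of *Dppa4* from E13.5 did not reach the threshold. *Nanos3* was highest in E13.5 males, and *Dazl* and *Ddx4* were highest in E13.5 females. *Kit* was near its E12.5 level in females of both later stages and lower in males.

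Among the fate factors, *Prdm14*, which returns PGCs to a pluripotency-like state, was at 29.1, 32.2 and 34.6 TPM in the E12.5 control libraries. It was at 16.9, 12.4 and 12.46 TPM in E13.5 female and 14.8, 17.2 and 17.9 TPM in E13.5 male controls. In E16.5 females it was at 1.62, 0 and 0 TPM, with 2 libraries at 0, and in E16.5 males at 4.84, 2.29 and 2.69 TPM. Values at E12.5 did not overlap those of either sex at E13.5, nor did those of E13.5 and E16.5 overlap within a sex, while the E13.5 sexes overlapped. *Prdm1*, the repressor of the somatic programme, followed with means of 17.7 ± 0.908, 9.40 ± 1.64 and 14.8 ± 2.56 TPM at E12.5 and in E13.5 females and males, and 0.328 ± 0.372 and 5.78 ± 0.314 TPM in E16.5 females and males. *Tfap2c* was at 64.5, 63.3 and 59.8 TPM at E12.5, 28.2, 25.2 and 30.0 TPM in E13.5 females and 14.2, 16.3 and 14.7 TPM in E13.5 males. By E16.5 it was at 1.39, 0.416 and 0 TPM in females and 6.58, 5.20 and 5.57 TPM in males. All control *Tfap2c* groups were apart from one another.

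Control libraries at E12.5, whose labels give no sex, held the Y-linked *Eif2s3y* at 198, 180.3 and 198 TPM, against 140.1, 171 and 156 TPM in E13.5 male controls and 0 in all E13.5 female ones. Stage and sex can therefore not be told apart between E12.5 and E13.5 females. Between these groups 5 of the 10 members were lower in E13.5 females past the threshold, where 25.4% of all 15383 genes tested were called. They were *Nanos3* (log2 fold change -2.35, SE 0.124, adjusted p = 4.5e-07), *Dppa4* (-1.51), *Prdm14* (-1.15), *Tfap2c* (-1.14) and *Dnd1* (-1.04), and no member was higher past it. With quantile normalization *Dnd1* was at -0.98 and with FPKM at -0.99, short of the fold threshold. *Prdm1* passed it with quantile normalization (-1.18) and with median-of-ratios scaling (-1.12). The median log2 fold change was -0.95 over the members and 0.27 over all genes. Between E12.5, whose labels give no sex, and E13.5 males, 2 members were called, where 16.2% of 14531 genes were. *Nanos3* rose by a log2 fold of 1.56 (SE 0.0821, adjusted p = 2.4e-07) and *Tfap2c* fell, with a log2 fold change of -1.99 (SE 0.0900, adjusted p = 1.4e-07). *Kit* had -0.98 there, just inside the fold threshold, and passed it without E12.5 control library 2 (-1.02) or E13.5 male control library 2 (-1.04). The median was -0.42 over the members and -0.03 over all genes.

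From E13.5 to E16.5 in females, 7 of the 10 members fell past the threshold, where 28.2% of 17988 genes were called: all but *Dazl*, *Ddx4* and *Kit*. The steepest was *Dppa2*, from 46.4, 47.8 and 50.3 TPM to 0.837, 1.33 and 0.244 TPM (log2 fold change -4.81, SE 0.260, adjusted p = 8.0e-07). *Tfap2c* followed at -4.26, and *Prdm14*, *Dnd1*, *Nanos3* and *Prdm1* lay between -3.42 and -2.99. *Dppa4* was the shallowest at -1.99. *Kit* was not called, going from 45.7, 35.5 and 53.4 TPM to 48.1, 53.2 and 45.1 TPM, with overlap. The median log2 fold change was -3.06 over the members and 0.31 over all genes.

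The same span in males called 7 of the 10 members, where 51.0% of 20434 genes were called. In males 6 fell, namely *Dppa2* (-2.66), *Nanos3* (-2.54), *Prdm14* (-2.09), *Dazl* (-1.46), *Tfap2c* (-1.24) and *Prdm1* (-1.20). *Dnd1* rose from 506, 591 and 587 TPM to 1208, 1131 and 1116 TPM. Its log2 fold change of 1.04 (SE 0.0677, adjusted p = 1.7e-06) was 0.66 with median-of-ratios scaling and 0.96 without E13.5 male control library 1, both under the fold threshold. *Dppa4* went from 524, 593 and 600.5 TPM to 1067, 1014 and 999 TPM, also without overlap, at a log2 fold of 0.84 that did not reach the threshold. The median over all genes was 0.62 in this comparison and 0.33 after median-of-ratios scaling, and the members' median was -1.22.

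Control females and males differed by sex in a pattern of their own. At E13.5, 4 of the 10 members were called between the sexes, where 29.8% of 15718 genes were. *Nanos3*, needed for PGC survival, was at 15.8, 16.1 and 17.7 TPM in females and 258, 259 and 272 TPM in males (log2 fold change, female against male, -3.91, SE 0.0855, adjusted p = 8.4e-09). *Dppa4* (-1.38) and *Dnd1* (-1.30) were also lower in females, and *Ddx4* was higher (1.28), though with median-of-ratios scaling *Ddx4* was at 0.95 and no longer called. At E16.5 the sexes differed in 8 of the 10 members, where 50.9% of 22065 genes were called. *Dnd1* was at 28.3, 16.1 and 19.5 TPM in females and 1208, 1131 and 1116 TPM in males, a log2 fold change of -5.73 (SE 0.179, adjusted p = 2.7e-07). *Nanos3* (-4.50), *Dppa4* (-4.22), *Prdm1* (-2.39), *Tfap2c* (-2.17) and *Dppa2* (-1.99) were lower in females too. *Dazl* (1.47) and *Kit* (adjusted p = 3.6e-05) were higher. *Prdm14* (-1.59, adjusted p = 0.011) was called without E16.5 female control library 1, the only one in which it was above 0 (-2.05, adjusted p = 0.001). All these stage and sex comparisons share control groups with one another.

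Genes beside the members changed as well in controls, and are given with their log2 fold changes, at most 3 by lowest p where more were called. In E13.5 females against E12.5, where stage and sex cannot be told apart, 1 further PGC gene (*Alpl* 1.01), 11 germline programme genes (*Tex101* 5.61, *Taf7l* 6.94, *Sycp3* 3.51) and 2 KIT signalling genes (*Stat3* 1.80, *Jak2* 1.31) were higher. The list genes that were lower were 7 further PGC genes (*Utf1* -2.03, *Tcl1* -2.14, *Dppa5a* -1.73), 2 partners (*Prmt5* -1.06, *Cbfa2t2* -1.01) and 5 KIT signalling genes (*Dusp6* -2.02, *Etv5* -1.69, *Spry2* -1.91). Among markers, 1 germ cell marker (*Tdrd9* 1.16) and 4 pregranulosa markers (*Bmp2* 2.26, *Irx3* 2.16, *Wnt4* 1.80) were higher, and 1 germ cell marker (*Tdrd5* -1.13), 1 Sertoli marker (*Cst9* -3.45), 1 endothelial marker (*Pecam1* -1.03) and 4 sex-linked transcripts were lower. Of these *Eif2s3y*, *Ddx3y* and *Uty* were listed at 0 in all 3 female libraries.

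For E13.5 males against E12.5, whose labels give no sex, 16.2% of all genes were called. For females this was 25.4%, and a difference between these was not tested. Here 1 further PGC gene (*Ifitm1* 1.51), 3 germline programme genes (*Taf7l* 2.30, *Tex101* 1.49, *Tdrd1* 1.70) and 1 partner (*Nanos2* 4.31) rose. The list genes that fell were 1 further PGC gene (*Sall4* -1.01), 1 germline programme gene (*Rpl10l* -1.05), 2 partners (*Pum2* -1.10, *Nanos1* -1.06) and 4 KIT signalling genes (*Spry2* -2.46, *Map2k1* -1.11, *Akt1* -1.19). Among markers, 1 pregranulosa marker (*Rspo1* 2.28), 3 Sertoli markers (*Cst9* 2.03, *Amh* 1.90, *Dhh* 1.005) and 3 interstitial markers (*Insl3* 4.23, *Cyp11a1* 2.86, *Hsd3b1* 1.71) rose, and 1 endothelial marker (*Pecam1* -1.35) fell.

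From E13.5 to E16.5 in females, all but 1 of the 13 further PGC genes fell, where 28.2% of all genes were called. In the gene lists, 9 germline programme genes (*Sycp1* 2.64, *Tex101* 1.35, *Sycp3* 1.73), 1 partner (*Pabpc1* 1.27) and 2 KIT signalling genes (*Stat3* 1.07, *Kitl* 1.59) rose. The list genes that fell were 12 further PGC genes (*Ifitm3* -5.44, *Dppa5a* -3.74, *Ifitm1* -4.91) and 5 KIT signalling genes (*Etv5* -3.14, *Mapk3* -1.65, *Akt1* -1.34). Among markers, 1 germ cell marker (*Tdrd9* 4.25), 1 Sertoli marker (*Sox9* 1.31), 1 interstitial marker (*Nr2f2* 1.86) and 1 endothelial marker (*Tek* 2.88) rose, and 1 endothelial marker (*Pecam1* -2.33) fell.

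In males over that later span 51.0% of all genes were called. From the lists, 9 germline programme genes (*Mael* 3.44, *Tex101* 4.23, *Mov10l1* 2.41), 1 partner (*Pabpc1* 1.42) and 3 KIT signalling genes (*Mapk3* 3.05, *Jak2* 2.55, *Stat3* 2.17) rose. The list genes that fell were 8 further PGC genes (*Ifitm1* -5.14, *Dppa5a* -4.64, *Ifitm3* -3.98), 5 partners (*Wdr77* -1.58, *Cnot1* -1.59, *Nanos2* -2.33) and 9 KIT signalling genes (*Etv5* -3.84, *Dusp6* -2.11, *Shc1* -1.29). Among markers, 2 germ cell markers (*Tdrd9* 5.70, *Piwil2* 2.08), 4 pregranulosa markers (*Wnt4* 1.65, *Fst* 1.27, *Bmp2* 1.27), 2 interstitial markers (*Pdgfra* 1.71, *Cyp11a1* 1.67), 1 endothelial marker (*Tek* 1.35) and 3 blood markers (*Hbb-bt* 3.70, *Hba-a1* 4.98, *Hbb-bs* 4.69) rose, and 1 endothelial marker (*Pecam1* -2.93) fell.

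Between the sexes of E13.5 controls 29.8% of all genes were called. In females 9 germline programme genes (*Taf7l* 4.64, *Tex101* 4.12, *Sycp3* 3.56), 1 partner (*Nanos1* 1.90) and 3 KIT signalling genes (*Akt1* 1.25, *Stat3* 1.31, *Jak2* 1.94) were higher. The list genes that were lower were 10 further PGC genes (*Utf1* -2.62, *Tcl1* -2.19, *Ifitm1* -1.58), 1 partner (*Nanos2* -4.87) and 2 KIT signalling genes (*Etv5* -1.27, *Etv4* -1.30). Among markers, 1 germ cell marker (*Rnf17* 1.01) and 3 pregranulosa markers (*Irx3* 2.41, *Bmp2* 2.17, *Wnt4* 1.52) were higher, and 1 germ cell marker (*Tdrd5* -1.70), 1 pregranulosa marker (*Rspo1* -1.13), 4 Sertoli markers (*Cst9* -5.48, *Amh*, *Dhh* -1.99), 3 interstitial markers (*Insl3* -4.05, *Cyp11a1* -2.88, *Hsd3b1* -2.43) and 4 sex-linked transcripts were lower. Of these *Amh*, *Eif2s3y*, *Ddx3y* and *Uty* were listed at 0 in all female controls.

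Between the sexes of E16.5 controls 50.9% of all genes were called. Female values of 5 germline programme genes (*Sycp1* 4.96, *Sycp3* 4.46, *Taf7l* 4.20), 5 partners (*Cbfa2t2* 2.40, *Cnot1* 2.16, *Pum2* 1.51) and 5 KIT signalling genes (*Sh2b3* 2.16, *Map2k1* 1.76) were higher. The list genes that were lower were 9 further PGC genes (*Utf1* -7.20, *Sall4* -3.81, *Ifitm3* -2.67), 2 germline programme genes (*Brdt* -1.31, *Tdrd1* -1.36), 2 partners (*Prmt5* -1.61, *Nanos2* -2.61) and 2 KIT signalling genes (*Mapk3* -4.67, *Etv4* -1.86). Among markers, 1 germ cell marker (*Rnf17* 1.03), 2 pregranulosa markers (*Foxl2* 1.24, *Irx3* 1.75), 1 interstitial marker (*Nr2f2* 1.95), 1 endothelial marker (*Tek* 1.69) and 1 sex-linked transcript (*Xist* 1.31) were higher, and 1 germ cell marker (*Piwil2* -1.20), 3 Sertoli markers (*Cst9*, *Amh* -1.33, *Sox9* -1.07), 4 interstitial markers (*Cyp11a1*, *Insl3*, *Pdgfra* -1.48), 3 blood markers (*Hba-a1* -4.96, *Hbb-bs* -4.08, *Hbb-bt* -3.37) and 4 sex-linked transcripts (*Eif2s3y*, *Ddx3y* -2.55, *Uty*) were lower. Of these *Cst9*, *Cyp11a1*, *Insl3*, *Eif2s3y* and *Uty* were listed at 0 in all female controls. Scaling was varied for the members and for counts over all genes, while list genes were fitted with TPM alone.

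Levels ranged widely among the members. In E12.5 controls *Dazl*, at 1477 ± 37.3 TPM, was above 99.4% of the 13132 genes at 1 TPM or more, and *Prdm1*, at 17.7 ± 0.908 TPM, was above 57.0% of them. *Dppa4* and *Dnd1* were above 97.7% and 96.7%. In E16.5 female controls *Dazl* was still above 99.5% of such genes, while *Prdm1*, *Prdm14*, *Tfap2c* and *Dppa2* had means under 1 TPM.

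**Figure D1:**
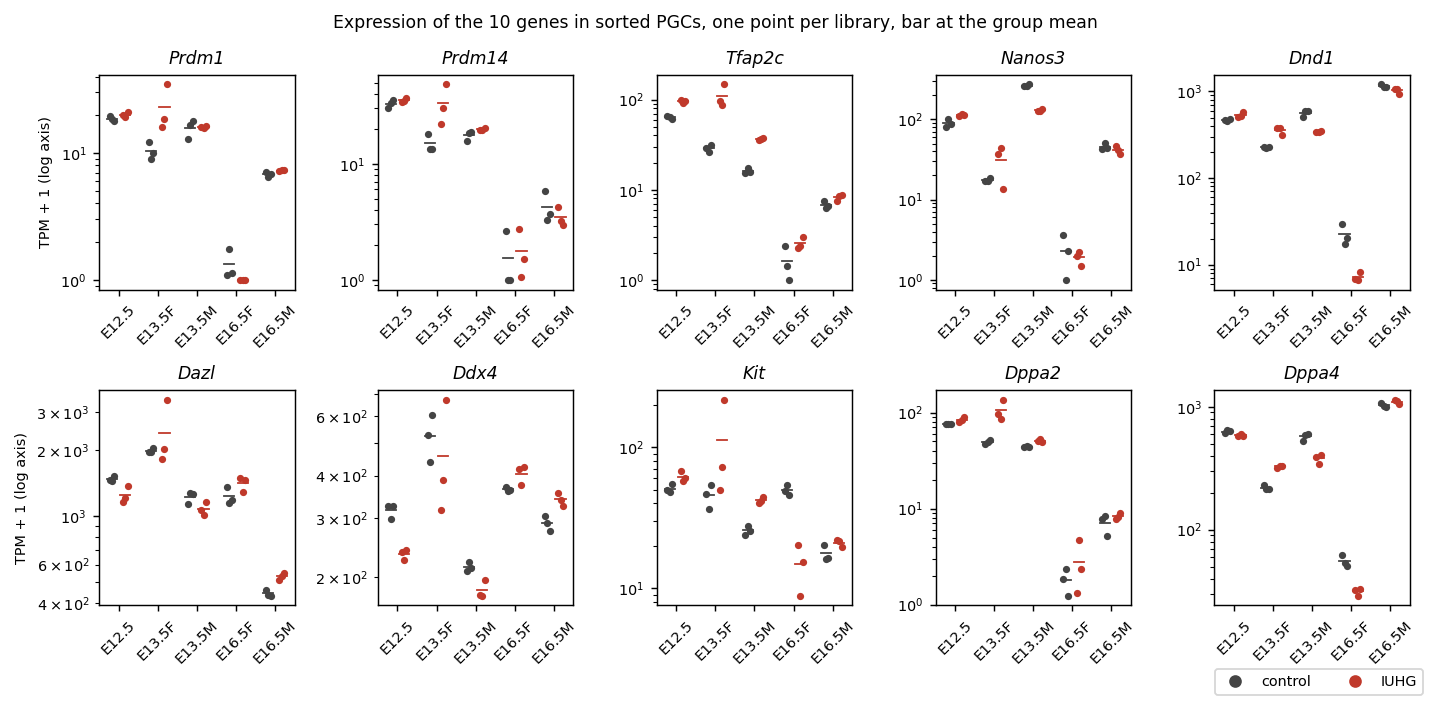
TPM + 1 on a log axis for each of the 10 genes in sorted PGCs by stage and sex, 1 point per library (dark control, red IUHG) and a bar at each group mean (n = 3). *Tfap2c* lies higher in every IUHG library than in every control library at E12.5 and in both sexes at E13.5, and *Dnd1* and *Dppa4* part between the sexes by E16.5.

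At E12.5, the earliest stage sampled, no member was called between IUHG and control PGCs with limma, where 0.247% of all 13770 genes were, and 5 of the 10 had an unadjusted p under 0.05, as did 2160 of all 13770 genes. The nearest was *Tfap2c*, higher in IUHG, and next came *Ddx4*, lower in IUHG. In 8 of the 10 members the 3 IUHG libraries did not overlap the 3 controls, which was so for 22.4% of all genes. Median log2 fold changes were 0.13 over the members and 0.04 over all genes.

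*Tfap2c* was at 64.5, 63.3 and 59.8 TPM in E12.5 controls and 97.7, 91.3 and 94.8 TPM in E12.5 IUHG libraries. Every IUHG value lay above every control value, by a log2 fold change of 0.59 (SE 0.0919, adjusted p = 0.017), which missed both thresholds. *Ddx4* was at 325, 297 and 323 TPM in controls and 236, 223 and 240.1 TPM in IUHG, all lower (-0.43, adjusted p = 0.045). *Nanos3* was at 79.5, 100.1 and 87.7 TPM in controls and 111, 117 and 112 TPM in IUHG, without overlap (adjusted p = 0.16). *Prdm1* and *Prdm14* overlapped, and log2 fold changes of the other 5 members were between -0.24 for *Dazl* and 0.28 for *Kit*.

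Sex-linked and somatic transcripts moved with the E12.5 groups. *Eif2s3y* was at 198, 180.3 and 198 TPM in controls and 138, 117 and 143 TPM in IUHG libraries, whose labels give no sex. The 4 Sertoli markers summed to 12.6, 14.7 and 13.3 TPM in controls and 5.83, 1.85 and 0.158 TPM in IUHG, with *Cst9* the most abundant in controls and *Amh* at 0 in 2 IUHG libraries. Summed germ cell markers were at 194, 189 and 200.04 TPM and 178, 158 and 148 TPM. Interstitial markers (3.46, 5.16 and 4.39 TPM against 1.77, 2.15 and 0.774 TPM) and pregranulosa markers (4.93, 4.35 and 5.83 TPM against 3.97, 1.36 and 4.10 TPM) were lower without overlap. Endothelial markers (132, 130.04 and 123 TPM against 165, 153 and 147 TPM) were higher, nearly all of it *Pecam1*, which PGCs also carry. *Cdh5*, *Kdr* and *Tek* had means under 1 TPM in both groups and overlapped, as did blood transcripts. The part of these in the members' values was not tested.

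In E13.5 female PGCs, at the stage when female germ cells begin meiosis, *Tfap2c* rose under IUHG and 8 of the other 9 members had a higher fitted value without reaching the threshold. In all, 1 of the 10 members was called, where 0.514% of all 16539 genes were, and 9 of the 10 had a positive log2 fold change, against 59.4% of all genes. The members' median log2 fold change was 0.85, and that of all genes 0.14. Groups did not overlap in 6 members, which was so for 33.0% of all genes.

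*Tfap2c* was at 28.2, 25.2 and 30.0 TPM in controls and 96.2, 86.5 and 147 TPM in IUHG libraries. Even the lowest IUHG library lay above all controls, and the mean of 109.8 TPM was the highest of the 10 PGC groups, though it overlapped the E12.5 IUHG group. The log2 fold change was 1.91 (SE 0.235, adjusted p = 0.0051). Without IUHG library 3 it was 1.68 (adjusted p = 3.1e-04). With any of the other 5 libraries left out in turn, the fold stayed between 1.84 and 2.06 but the adjusted p rose to between 0.014 and 0.054, short of the threshold, as it also was with no filter on low genes (adjusted p = 0.053).

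*Dppa2* was at 46.4, 47.8 and 50.3 TPM in female controls and 95.3, 84.6 and 134 TPM in IUHG, all higher, with a log2 fold change of 1.08 (SE 0.213) at an adjusted p of 0.032. *Prdm1* was at 11.2, 8.03 and 8.95 TPM and 15.1, 17.5 and 33.8 TPM, and *Prdm14* at 16.9, 12.4 and 12.46 TPM and 21.0, 29.3 and 47.3 TPM. Both were free of overlap with log2 fold changes of 1.08 and 1.10, and both were highest in IUHG library 3 (adjusted p = 0.1 and 0.088). *Dnd1* (230.2, 223 and 226 TPM against 379, 379 and 313 TPM) and *Dppa4* (229, 215 and 212 TPM against 319, 331 and 330.2 TPM) were higher in every IUHG library too. Their adjusted p was 0.062 and 0.072. Without IUHG library 3, log2 fold changes were 0.89 for *Dppa2*, 0.74 for *Prdm1*, 0.80 for *Prdm14*, 0.74 for *Dnd1* and 0.57 for *Dppa4*, all inside the fold threshold. The count of all genes called went from 85 to 428 without that library, and was 1 to 41 without any other.

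The remaining 4 members overlapped in E13.5 females, and library 3 held an extreme value for each. *Kit*, the receptor for the survival signal from somatic cells, was at 45.7, 35.5 and 53.4 TPM in controls and 48.7, 71.8 and 214 TPM in IUHG. Its log2 fold change was 1.02 (SE 0.458, adjusted p = 0.21) and 0.41 without IUHG library 3. *Nanos3* was at 15.8, 16.1 and 17.7 TPM in controls and 36.0, 42.8 and 12.53 TPM in IUHG, with library 3 below all controls. Its log2 fold change of 0.68 (adjusted p = 0.32) became 1.20 (adjusted p = 0.0029) without that library, past the threshold. *Dazl* was at 1962, 1962 and 2043 TPM and 1818, 2025 and 3399 TPM, and *Ddx4* at 527, 437 and 605 TPM and 315, 387 and 669.5 TPM, each highest in IUHG library 3. Without it, the log2 fold change of *Dazl* went from 0.22 to -0.05 and that of *Ddx4* from -0.26 to -0.57.

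Other pluripotency and germ cell genes were measured beside the members, from lists chosen with earlier results of these data known. The paper names *Nanog*, *Sall4*, *Sox2*, *Mael*, *Sycp1*, *Sycp3*, *Slc25a31* and *Tdrd1* among its changed genes in these cells, so their directions are not independent of it. Of 13 further PGC genes, none was called in E13.5 females with limma, and 12 had a positive log2 fold change (median 0.97). *Nanog* was at 17.1, 15.1 and 26.9 TPM in controls and 54.4, 65.0 and 59.5 TPM in IUHG (adjusted p = 0.014), and *Sox2* at 22.9, 21.4 and 24.7 TPM and 71.8, 52.2 and 67.5 TPM (adjusted p = 0.011). *Pou5f1* (0.97) and *Sall4* (1.61) had an adjusted p of 0.094 and 0.071. Among 13 genes of the germline and meiotic programme, 4 fell, led by *Taf7l* (log2 fold change -2.90), *Sycp3* (-2.10), a component of the meiotic chromosome axis, and *Tex101* (-2.68). The median over these 13 genes was -0.98. None of 21 genes of KIT signalling and none of 8 tested partners of the RNA-binding members was called, at list medians of 0.59 and 0.89.

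Somatic markers in E13.5 female PGCs were low. The 4 Sertoli markers summed to 0.694 TPM or less in every library and *Amh* was at 0 in all 6. Interstitial markers summed to 3.16, 1.80 and 2.51 TPM in controls and 3.56, 3.03 and 8.06 TPM in IUHG, and pregranulosa markers to 20.9, 23.7 and 24.4 TPM and 21.6, 13.4 and 17.0 TPM. Endothelial markers summed to 67.9, 51.2 and 69.8 TPM and 89.3, 127 and 209 TPM, nearly all of it *Pecam1*, which PGCs also carry, while *Cdh5*, *Kdr* and *Tek* had means under 1 TPM. Germ cell markers summed to 226, 188 and 239 TPM and 142, 185 and 402 TPM, again highest in IUHG library 3. Blood transcripts, mostly *Hba-a1*, summed to 34.0, 32.9 and 0.0629 TPM and 16.7, 20.6 and 0 TPM. *Xist* was at 0.260, 0.291 and 0.406 TPM and 1.03, 0.738 and 0.954 TPM, higher in every IUHG library. The part of these in the members' values was not tested.

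In E13.5 male PGCs, IUHG went with higher *Tfap2c* and lower *Nanos3*. These were 2 of the 10 members called, where 3.92% of all 14473 genes were, and 8 members were free of overlap, as were 47.1% of all genes. *Kit* and *Dppa2* were higher and *Dnd1*, *Dppa4* and *Ddx4* lower in every IUHG library, at smaller folds that did not reach the threshold. Median log2 fold changes were -0.07 over the members and -0.02 over all genes.

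*Tfap2c* was at 14.2, 16.3 and 14.7 TPM in male controls and 35.0, 35.2 and 36.4 TPM in IUHG libraries. The groups were tight and far apart, with a log2 fold change of 1.19 (SE 0.0764, adjusted p = 6.1e-06). *Nanos3* was at 258, 259 and 272 TPM in controls and 127, 128 and 132 TPM in IUHG. All IUHG values lay below all controls, and the log2 fold change of -1.02 (SE 0.0459, adjusted p = 7.8e-07) was close to the fold threshold, so that the call was lost without control library 3 (-0.999) and with FPKM (-0.99). In a fit over all PGC groups its adjusted p was 0.042.

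*Dnd1*, the RNA-binding partner of the NANOS proteins, was at 506, 591 and 587 TPM in male controls and 338, 338 and 350.0 TPM in IUHG, and *Dppa4* at 524, 593 and 600.5 TPM and 389, 341 and 408 TPM. Both were lower in every IUHG library, with log2 fold changes of -0.71 (SE 0.0605, adjusted p = 3.5e-05) and -0.59 (SE 0.0735, adjusted p = 3.1e-04). *Kit* was at 23.0, 26.8 and 24.4 TPM in controls and 39.4, 40.3 and 43.4 TPM in IUHG, all higher (0.71, SE 0.0772, adjusted p = 1.5e-04). *Ddx4* (-0.23), *Dppa2* (0.22) and *Prdm14* (0.18) were also free of overlap, at an adjusted p of 0.011, 0.02 and 0.16. *Prdm1* and *Dazl* overlapped between the groups, at log2 fold changes of 0.04 and -0.18.

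Around the members, *Nanos2*, the male germ cell gene that follows *Nanos3*, fell among the 9 partners tested, from 28.2, 31.9 and 31.3 TPM to 5.44, 2.78 and 4.33 TPM (log2 fold change -2.63, SE 0.170, adjusted p = 6.3e-06). It was the only partner called. Of the 13 germline programme genes, *Tdrd1* fell (-1.48), and of the 4 germ cell markers *Tdrd5* fell (-1.12). None of the 13 further PGC genes was called with limma, of which *Sox2* (0.26), *Nanog* (0.17), *Sall4* (0.17) and *Pou5f1* (-0.16) stayed within 0.27 of 0. None of 20 tested KIT signalling genes was called.

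Somatic transcripts moved with the E13.5 male groups. The 6 interstitial markers summed to 42.5, 27.0 and 39.5 TPM in controls and 2.09, 4.73 and 1.37 TPM in IUHG, and 3 of the 4 tested fell: *Insl3* (-3.92), the most abundant in controls, *Cyp11a1* (-2.81) and *Hsd3b1* (-2.38). Sertoli markers summed to 59.3, 56.0 and 56.5 TPM and 85.7, 75.8 and 52.6 TPM, mostly *Cst9*, and none was called. Pregranulosa markers summed to 14.9, 19.4 and 17.3 TPM and 10.4, 10.2 and 9.10 TPM, mostly *Rspo1*, which fell (-1.28), while *Irx3* rose (1.29). Germ cell markers summed to 218, 235 and 242 TPM and 138, 136 and 146 TPM, and *Eif2s3y* was at 140.1, 171 and 156 TPM and 109, 109.8 and 106 TPM. Endothelial markers summed to 46.7, 51.1 and 52.3 TPM and 73.1, 76.2 and 83.5 TPM, higher in every IUHG library. Nearly all of this was *Pecam1*, which PGCs also carry. Means of *Cdh5*, *Kdr* and *Tek* went the other way, from 0.152, 0.268 and 0.0927 TPM in controls to 0.0370, 0.0843 and 0 TPM in IUHG. Blood transcripts overlapped. The part of these in the members' values was not tested.

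Whether the IUHG effect differed between the sexes at E13.5 was tested as an interaction, the female log2 fold change minus the male one. *Dnd1* and *Dppa4* were called, 2 of the 10 members where 3.20% of all 17389 genes were called at an adjusted p under 0.01. Over all genes, 557 were called, and leaving out 1 library gave from 228 (without male IUHG library 1) to 1642 (without female IUHG library 3). *Dnd1* differed by 1.36 (SE 0.150, adjusted p = 1.9e-04), with 0.65 in females and -0.71 in males. *Dppa4* differed by 1.17 (SE 0.144, adjusted p = 4.0e-04), with 0.58 in females and -0.59 in males. With median-of-ratios scaling both were just short of the threshold (adjusted p = 0.012 and 0.011). *Nanos3*, at 0.68 in females and -1.02 in males, had an interaction of 1.70 (adjusted p = 0.03), which was called without female IUHG library 3 (2.22, adjusted p = 3.7e-07). *Dppa2* (0.86, adjusted p = 0.024) was called without female IUHG library 2 (0.99, adjusted p = 0.0074) or library 3 (0.67, adjusted p = 0.0022). For *Tfap2c* the interaction was 0.72 (SE 0.246, adjusted p = 0.082). *Prdm1*, *Prdm14*, *Dazl*, *Ddx4* and *Kit* had interactions of 1.04, 0.93, 0.40, -0.03 and 0.32, none of them called. Median interactions were 0.89 over the members and 0.16 over all genes. Beside the members, *Tcl1* (1.34), *Utf1* (0.92), *Sox2* (1.16) and *Nanog* (1.42) of the further PGC genes and the interstitial marker *Star* (1.49) were called with a higher log2 fold change in females. *Taf7l* (-2.64), *Sycp3* (-1.92) and *Tex101* (-2.76) of the germline programme went the other way. *Nanos2* of the partners and the interstitial markers *Insl3* and *Cyp11a1* also passed the threshold, but reached the filter through males alone. In females their control and IUHG means were 0.0794 and 0.0294 TPM, 0.172 and 0.490 TPM, and 0.184 and 0.0995 TPM, so these interactions restate the falls in males. The part of the interstitial markers in the members' values was not tested.

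**Figure D2:**
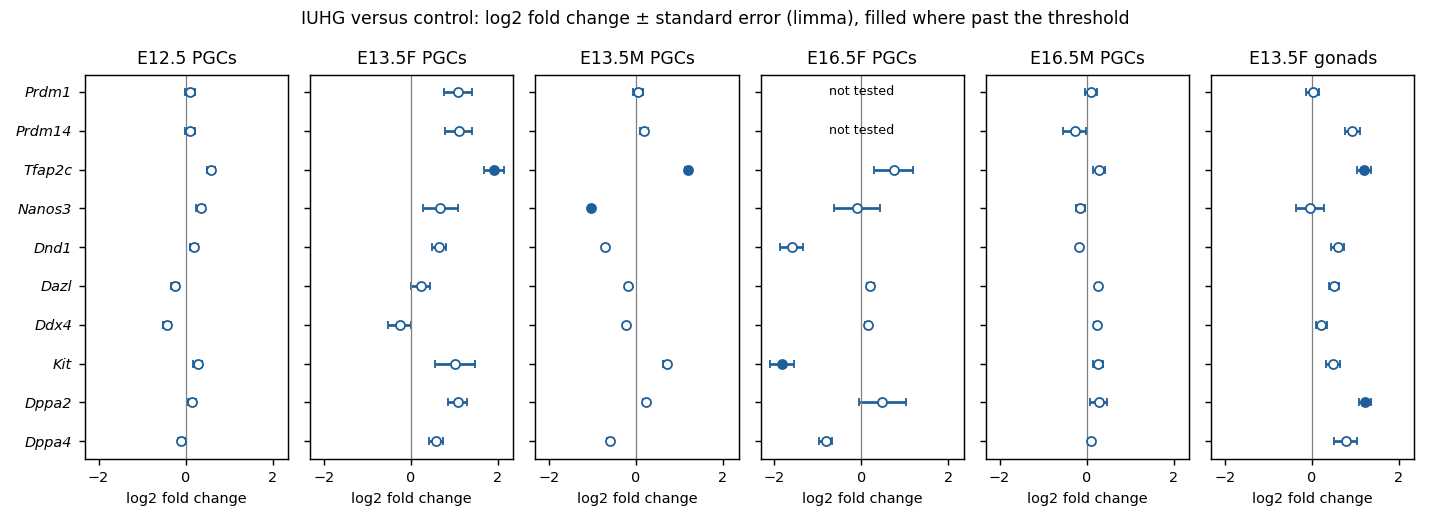
Log2 fold change of IUHG against control on log2(TPM + 1) for each of the 10 genes, with standard error bars from limma (n = 3 against 3) and filled points where the threshold was passed. *Tfap2c* is filled in E13.5 female PGCs (1.91), E13.5 male PGCs (1.19) and E13.5 female gonads (1.19), and *Kit* in E16.5 female PGCs (-1.82). *Nanos3* is also filled in E13.5 male PGCs, where it was lower, and *Dppa2* in E13.5 female gonads, where it was higher.

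In E16.5 female PGCs, which are in meiosis, *Kit* fell under IUHG, and *Dnd1* and *Dppa4* had lower values in every IUHG library. *Prdm1* and *Prdm14* were too low to be tested, and of the other 8 members 1 was called, where 0.736% of all 18753 genes were. Groups did not overlap in 4 of the 8, as in 28.9% of all genes. Median log2 fold changes were 0.02 over the 8 members and 0.04 over all genes.

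*Kit* was at 48.1, 53.2 and 45.1 TPM in controls and 19.2, 7.91 and 14.3 TPM in IUHG libraries. All IUHG values were below all controls, and the group mean of 13.8 TPM was the lowest of the 10 PGC groups. The log2 fold change was -1.82 (SE 0.279, adjusted p = 0.0084). The call was lost without control library 1, 2 or 3 or IUHG library 3, with the adjusted p between 0.045 and 0.068 and the log2 fold change between -1.89 and -1.76. It was also lost with no filter (adjusted p = 0.076), with a pseudocount of 0.1 (0.015) and with libraries of the same number taken as pairs. It was kept without IUHG library 1 (-2.09) or 2 (-1.497).

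*Dnd1* was at 28.3, 16.1 and 19.5 TPM in controls and 5.75, 5.69 and 7.19 TPM in IUHG. All IUHG values were below all controls, with a log2 fold change of -1.60 (SE 0.262) and an adjusted p of 0.011, just short of the threshold. With FPKM it was called (-1.48, adjusted p = 0.008). *Dppa4* was at 60.8, 53.0 and 49.2 TPM and 31.2, 28.0 and 31.9 TPM (-0.81, SE 0.150, adjusted p = 0.019). *Prdm1* was at 0.0951, 0.758 and 0.132 TPM in controls and listed at 0 in all 3 IUHG libraries, and *Prdm14* was at 1.62, 0 and 0 TPM and 1.75, 0.0653 and 0.501 TPM. *Tfap2c* (1.39, 0.416 and 0 TPM against 1.25, 1.38 and 1.99 TPM), *Nanos3* and *Dppa2* overlapped at no more than 3.76 TPM in any library (log2 fold changes 0.75, -0.10 and 0.49). *Dazl* and *Ddx4* stayed high, at 1502, 1289 and 1460.3 TPM and 417, 374 and 423 TPM in IUHG (log2 fold changes 0.20 and 0.15), and *Ddx4* was higher in every IUHG library than in controls.

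Beside these, *Dppa3* (*Stella*), a maternal-effect gene of germ cells, fell from 253, 227 and 184 TPM to 14.5, 2.53 and 9.81 TPM (log2 fold change -4.72, SE 0.448, adjusted p = 0.0011). It was the only one of 10 tested further PGC genes called, and the median over the 10 was -0.66. *Pou5f1* was at 13.6, 5.64 and 5.34 TPM and 3.05, 5.64 and 3.58 TPM, *Sox2* and *Sall4* were under 5 TPM, and *Nanog* was not tested. *Tdrd1* (-1.24) of 13 germline programme genes and *Tdrd9* (-1.29) of 4 germ cell markers fell. Germ cell markers summed to 324, 384 and 374 TPM in controls and 312, 274 and 297 TPM in IUHG, less in every IUHG library, although *Rnf17*, the most abundant, was higher in each (0.19, adjusted p = 0.28). *Piwil2*, named after its values were seen, was at 72.6, 74.4 and 73.7 TPM and 31.7, 37.6 and 44.5 TPM (-0.95, adjusted p = 0.0102). Fewer genes were above 0 in IUHG libraries too, 21077, 22231 and 24451 against 25623, 25027 and 26048 in controls. Among 19 KIT signalling genes tested none was called, and the ligand gene *Kitl*, made by somatic cells, was at 4.90, 4.68 and 2.41 TPM in controls and 0, 0.559 and 0.805 TPM in IUHG (-1.78, adjusted p = 0.042). Pregranulosa markers summed to 23.0, 44.2 and 42.4 TPM and 40.3, 28.2 and 40.8 TPM, with the defining marker *Foxl2* at 1.45, 1.71 and 2.67 TPM and 0.549, 1.33 and 0.623 TPM. Sertoli markers summed to 3.61, 4.63 and 2.09 TPM and 0, 1.46 and 1.27 TPM, lower in every IUHG library, as was *Sox9* at 1.62, 2.31 and 1.91 TPM and 0, 1.25 and 0.894 TPM, and *Dhh* was listed at 0 in all 3 IUHG libraries. Sex-linked transcripts summed to 2.16, 1.94 and 1.47 TPM and 2.53, 2.46 and 2.52 TPM, higher in every IUHG library. *Xist* alone was at 2.16, 1.89 and 1.37 TPM and 1.93, 2.46 and 2.25 TPM and overlapped. The sum of IUHG library 1 also holds the Y-linked *Ddx3y* at 0.601 TPM. Interstitial and endothelial sums overlapped. Blood transcripts reached 262.5 TPM in IUHG library 3, against 28.3 TPM or less in the other 5. The part of these in the members' values was not tested.

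A stage interaction in females, the E16.5 log2 fold change minus that at E13.5, was called for *Dnd1* and *Dppa4*, 2 of the 10 members where 1.93% of all 20584 genes were called. That is 397 genes, and leaving out 1 library gave from 196 (without E16.5 IUHG library 3) to 771 (without E13.5 IUHG library 3). *Dnd1* differed by -2.25 (SE 0.278, adjusted p = 2.4e-04), with 0.65 at E13.5 and -1.60 at E16.5. *Dppa4* differed by -1.39 (SE 0.194, adjusted p = 7.6e-04). *Kit* differed by -2.85 (SE 0.594) at an adjusted p of 0.012, and was called without E13.5 IUHG library 1 (-3.29) or library 3 (-2.24) and with median-of-ratios scaling (-2.73). *Sox2* (-2.45), under 5 TPM at E16.5, and *Dppa3* (-4.99) of the further PGC genes were also called. Of the 13 germline programme genes, 6 were called with higher log2 fold changes at E16.5, led by *Taf7l* (3.07), *Sycp3* (2.50) and *Tex101* (2.99). *Ddx4* (0.41) and *Dazl* (-0.02) were not called. Nor were *Tfap2c* (-1.16), *Nanos3* (-0.78) and *Dppa2* (-0.59), which at no more than 3.76 TPM in any E16.5 female library had little room to fall. No interaction is given for *Prdm1* and *Prdm14*, which reached the filter through E13.5 alone.

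In E16.5 male PGCs the members lay close to control. With limma none of the 10 was called, where 0.201% of all 20945 genes were, and 3 had an unadjusted p under 0.05, as did 5003 of all 20945 genes. Groups did not overlap in 4 members, as in 29.8% of all genes. The nearest to the threshold was *Dazl*, at 459, 434 and 432 TPM in controls and 512, 534 and 549 TPM in IUHG, all higher (0.27, SE 0.0530, adjusted p = 0.026). *Ddx4* was at 302, 289 and 273 TPM and 355, 339 and 324 TPM, and *Dnd1* at 1208, 1131 and 1116 TPM and 1074, 1072 and 941 TPM, lower in IUHG. *Tfap2c* was at 6.58, 5.20 and 5.57 TPM and 6.57, 7.46 and 7.81 TPM and overlapped. *Prdm1* (0.10), *Nanos3* (-0.14), *Kit* (0.26), *Dppa2* (0.28) and *Dppa4* (0.10) were not called either. Log2 fold changes of all 10 were between -0.27 for *Prdm14* and 0.29 for *Tfap2c*, with a median of 0.17 over the members and 0.04 over all genes.

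Sertoli and interstitial markers summed to less in every E16.5 male IUHG library than in any control. Sertoli markers summed to 88.7, 75.4 and 95.3 TPM in controls and 35.8, 29.1 and 17.3 TPM in IUHG, mostly *Cst9*, which fell (-1.88, adjusted p = 0.0078). Interstitial markers summed to 166, 92.8 and 41.4 TPM and 21.9, 33.8 and 14.1 TPM, and blood transcripts to 472, 242 and 185 TPM and 215, 91.4 and 28.6 TPM, with overlap. Germ cell markers were at 469.5, 499 and 478 TPM and 539, 519 and 524 TPM in sum. Sex-linked transcripts, at 98.9, 82.2 and 78.1 TPM and 116, 123 and 117 TPM, were higher in every IUHG library, and pregranulosa and endothelial sums overlapped. Among the further PGC genes (13), partners (9), germline programme genes (13) and KIT signalling genes (19 tested) none was called.

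The stage interaction in males, the E16.5 log2 fold change minus that at E13.5, was called for 6 of the 10 members, where 8.29% of all 21712 genes were called. That is 1800 genes, and 1220 to 1741 with 1 library left out. *Tfap2c* differed by -0.90 (SE 0.142, adjusted p = 1.0e-03) and *Nanos3* by 0.88 (SE 0.119, adjusted p = 3.3e-04), with E16.5 log2 fold changes of 0.29 and -0.14. *Dppa4* (0.70), *Dnd1* (0.55), *Ddx4* (0.46) and *Dazl* (0.44) followed. *Dazl* was not called without E13.5 control library 2 (0.41, adjusted p = 0.0103) or 3 (0.42, adjusted p = 0.0101), nor with either other scaling, and *Ddx4* was not called with median-of-ratios scaling (0.36, adjusted p = 0.019). In a fit over all PGC groups, only *Dppa4* of these 6 was called. *Kit* (-0.44), *Prdm14* (-0.45), *Prdm1* (0.06) and *Dppa2* (0.06) were not called, and median interactions were 0.25 over the members and 0.06 over all genes. Of 20 KIT signalling genes tested, 4 had a positive and 3 a negative interaction past the threshold, the positive ones led by *Stat3* (0.87), *Mapk3* (0.52) and *Shc1* (0.58), the negative ones *Dusp6* (-1.28), *Akt1* (-1.23) and *Etv5* (-0.70). Of the 9 partners, *Nanos2* (2.00), *Wdr77* (0.48) and *Prmt5* (0.45) had positive ones. Of the 13 germline programme genes 6 had positive ones, led by *Stk31* (1.13), *Tdrd1* (1.70) and *Mael* (1.000), and *Sox2* (-0.86), *Ifitm1* (-0.64) and *Ifitm3* (-0.84) of the further PGC genes had negative ones.

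Markers moved with the male stage interaction too. The germ cell markers *Tdrd5* (1.46) and *Tdrd9* (0.75) and the Y-linked *Eif2s3y* (0.98) and *Uty* (0.89) had positive interactions. *Cst9* (-2.27) of the Sertoli markers, *Irx3* (-1.59) of the pregranulosa markers and *Pecam1* (-0.83) had negative ones. The part of these in the members' values was not tested.

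**Figure D3:**
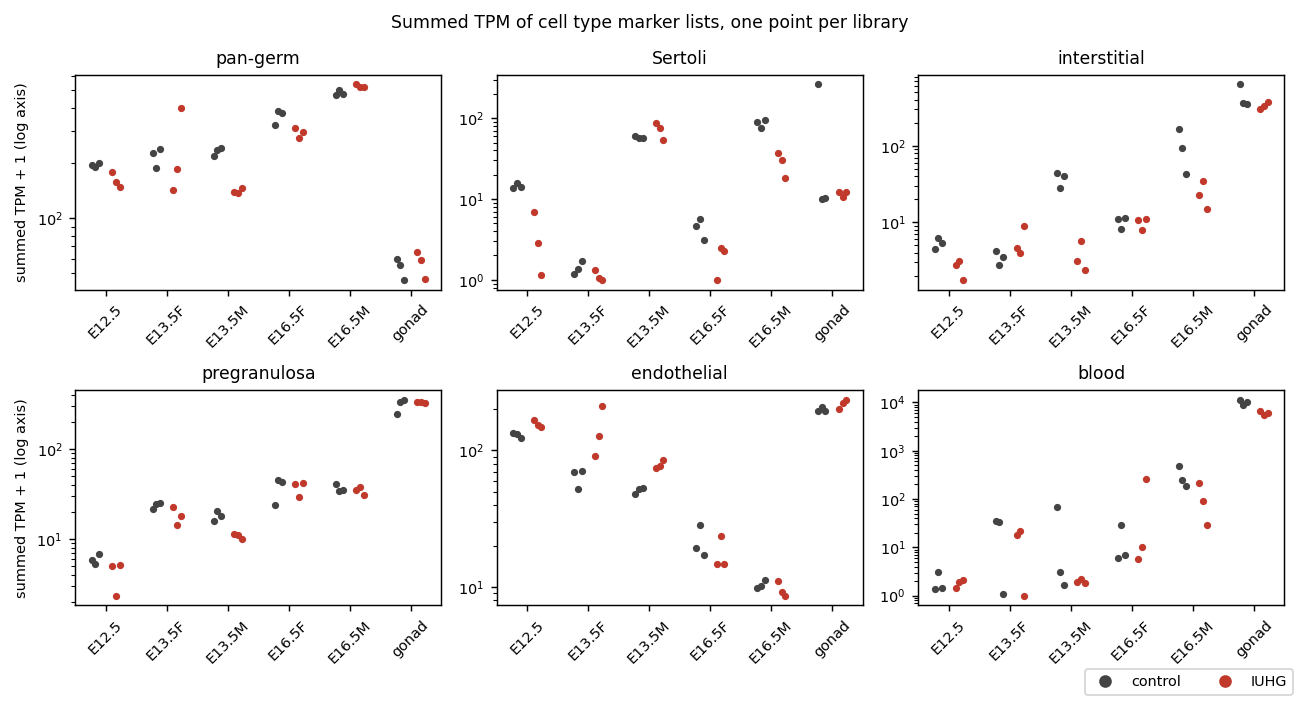
Summed TPM + 1 on a log axis for 6 lists of cell type markers, 1 point per library (dark control, red IUHG), in sorted PGCs and whole gonads. Interstitial markers lie lower in every IUHG library than in every control library of E13.5 and E16.5 male PGCs, and control library 1 of the gonads reaches 262 TPM in Sertoli markers.

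In whole female gonads at E13.5, in which germ cells are a part of all cells, *Tfap2c* and *Dppa2* rose under IUHG. They were 2 of the 10 members called, where 0.612% of all 18150 genes were, and groups did not overlap in 6 members, as in 25.8% of all genes. The members' median log2 fold change was 0.55, with 9 of 10 positive, against a median of 0.01 and 51.7% positive over all genes. Gonad and PGC tables were made by the authors separately, so their levels are set side by side without a test.

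*Dppa2* was at 5.36, 4.58 and 6.28 TPM in control gonads and 12.3, 15.2 and 14.0 TPM in IUHG gonads. Every IUHG value lay above every control, and the log2 fold change was 1.22 (SE 0.134, adjusted p = 0.0065). *Tfap2c* was at 4.76, 6.88 and 8.01 TPM and 16.8, 14.9 and 16.2 TPM, also without overlap (1.19, SE 0.162, adjusted p = 0.014). Without IUHG library 1, 2 or 3 the adjusted p of *Tfap2c* was 0.06, 0.059 and 0.051, and without control library 1, the one with Y-linked and Sertoli transcripts, both genes were called (1.01 for *Tfap2c* and 1.21 for *Dppa2*). With no filter on low genes neither was called (adjusted p = 0.088 and 0.071). *Prdm14* was at 3.42, 2.14 and 3.80 TPM and 6.77, 6.25 and 7.16 TPM, all higher, at a log2 fold of 0.93 (SE 0.179, adjusted p = 0.039) that fell short of the fold threshold.

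*Dppa4* was at 48.8, 20.5 and 25.5 TPM in control gonads and 56.8, 51.6 and 46.3 TPM in IUHG gonads. Control library 1 was high among the controls and overlapped the IUHG group, and the log2 fold change of 0.78 (adjusted p = 0.15) became 1.14 (adjusted p = 0.0085) without it, past the threshold. *Nanos3* was also highest in that library, at 8.35, 3.82 and 2.53 TPM in controls against 4.32, 3.49 and 5.18 TPM in IUHG. *Dazl* (156, 206 and 199 TPM against 294, 271 and 233 TPM), *Kit* (29.1, 41.3 and 45.8 TPM against 59.7, 53.4 and 48.7 TPM) and *Dnd1* (32.7, 20.9 and 25.2 TPM against 42.5, 43.4 and 33.2 TPM) were higher in every IUHG library. Their adjusted p was 0.061, 0.13 and 0.094. *Ddx4* (47.8, 64.3 and 59.7 TPM against 73.4, 69.0 and 57.1 TPM) and *Prdm1* (8.81, 10.7 and 13.3 TPM against 11.4, 11.5 and 9.97 TPM) overlapped. Without control library 1, log2 fold changes were 0.99 for *Prdm14*, 0.75 for *Dnd1*, 0.38 for *Dazl*, 0.36 for *Nanos3*, 0.30 for *Kit*, 0.09 for *Ddx4* and -0.12 for *Prdm1*, none of them called. With that library *Dnd1*, *Dazl*, *Nanos3*, *Kit*, *Ddx4* and *Prdm1* were at 0.59, 0.51, -0.04, 0.49, 0.21 and 0.02.

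Of the 13 further PGC genes in the gonads, 2 rose: *Nanog* from 5.66, 3.12 and 5.76 TPM to 13.2, 14.1 and 13.2 TPM (1.34, adjusted p = 0.016) and *Esrrb* from 5.03, 4.76 and 5.25 TPM to 16.7, 14.4 and 12.6 TPM (1.36, adjusted p = 0.0028). The log2 fold change was positive in all 13, with a median of 0.82, and *Pou5f1* (0.92), *Sall4* (0.96) and *Sox2* (0.79) had an adjusted p of 0.018, 0.031 and 0.033. None of the germline programme genes, partners or 21 KIT signalling genes was called. The ligand gene *Kitl* was at 47.4, 63.7 and 70.5 TPM in controls and 59.1, 70.6 and 66.2 TPM in IUHG gonads.

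Cell type markers were also summed in the gonads. Germ cell markers summed to 59.1, 54.6 and 44.99 TPM in controls and 64.3, 58.0 and 45.2 TPM in IUHG, and overlapped, with *Tdrd5* at 25.2, 8.36 and 7.34 TPM in controls. Sex-linked transcripts summed to 214, 221 and 228 TPM and 169, 190.0 and 198 TPM, lower in every IUHG library. *Xist* alone was at 163, 221 and 228 TPM and 169, 190.0 and 198 TPM and overlapped. The sum of control library 1 also holds its Y-linked transcripts. Interstitial sums overlapped. The highest control values of *Insl3*, *Cyp11a1* and *Hsd3b1* were 117, 67.6 and 85.3 TPM, against control medians of 0.742, 1.18 and 6.43 TPM. Pregranulosa markers summed to 244, 338 and 352 TPM and 332, 334 and 329 TPM, with control library 1 the lowest, and endothelial markers to 192, 207 and 192 TPM and 201, 222 and 232 TPM. Blood transcripts summed to 11174, 8863 and 10306 TPM and 6612, 5474 and 5912 TPM, and *Hbb-bs* (-1.39) and *Hbb-bt* (-1.16) fell. The part of these in the members' values was not tested.

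**Figure D4:**
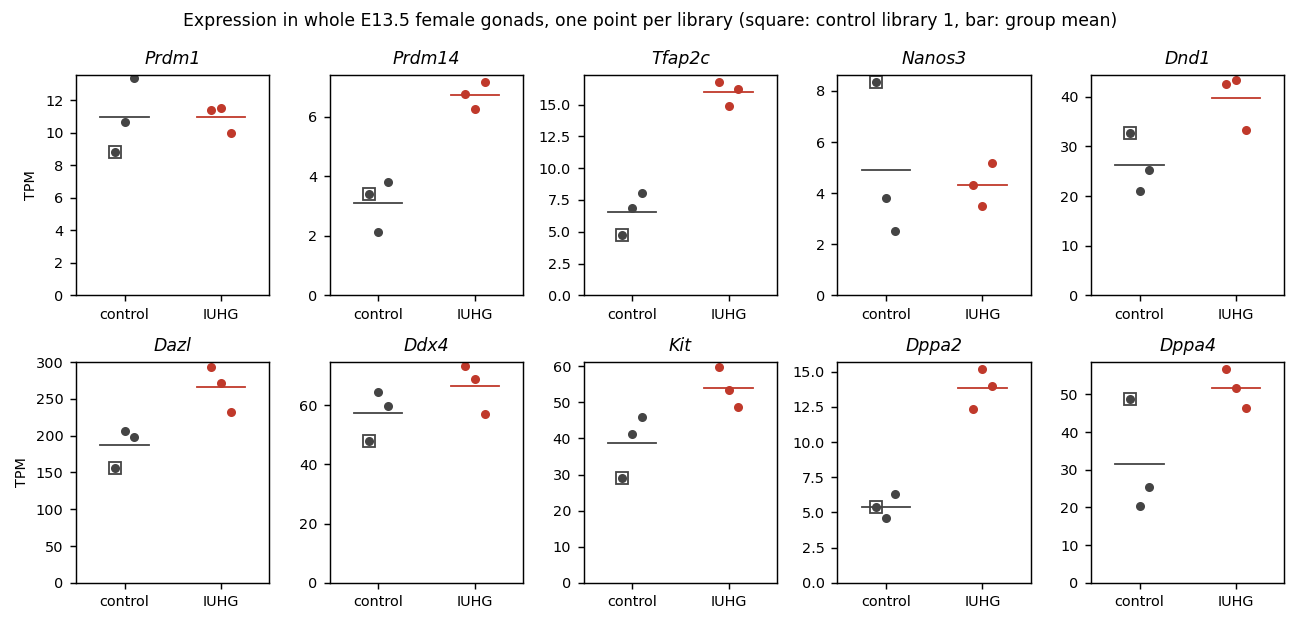
TPM of the 10 genes in whole E13.5 female gonads, 1 point per library with a bar at the group mean (n = 3) and a square around control library 1. *Tfap2c*, *Dppa2* and *Prdm14* lie higher in all 3 IUHG libraries than in all 3 controls, and for *Dppa4* the square marks the only control within the IUHG range.

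Across the 5 PGC comparisons and the gonads, *Tfap2c* had a log2 fold change of 0.59 at E12.5, 1.91 and 1.19 in E13.5 female and male PGCs, 0.75 and 0.29 in E16.5 female and male PGCs, and 1.19 in female gonads. Its 10 PGC group means ran from 109.8 TPM in E13.5 IUHG females to 0.601 TPM in E16.5 control females. In that order E12.5 IUHG (94.6 TPM) overlapped the group above it, and the E16.5 pairs overlapped within each sex, while the other neighbours did not overlap. For *Kit* the order ran from 111.5 TPM in E13.5 IUHG females to 13.8 TPM in E16.5 IUHG females, and 6 of its 9 neighbouring pairs overlapped.

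Members also went together over the 10 PGC group means, which share stages and sexes and are given as a description. *Prdm14* and *Dppa2* had a Pearson r of 0.992 and *Dnd1* and *Dppa4* had 0.988, while *Nanos3* and *Ddx4* had an r of -0.685. Among 11863 genes with a highest group mean of at least 10 TPM, the gene most like *Tfap2c* was *Map2k6* (0.992), then *Adam19* and *Dph7*. Most like *Nanos3* were *Pdlim3* (0.990), *Shmt2* and *Trh*, and most like *Kit* were *Acbd5* (0.964), *Slc37a1* and *Norad*. *Dppa2* was closest to *Cenpa* (0.994) and *Pdha1* before *Prdm14*, which in turn had *Dppa2*, *Wdr89* and *Slc25a5* nearest. For *Dnd1* these were *Gm13261* (0.989), *Inava* and *Dppa4*, and for *Dppa4* *Inava*, *Dnd1* and *Gga2*. *Prdm1* was closest to *Gstm3* (0.991), *Elovl6* and *Atp10a*, *Dazl* to *Gm49336* (0.992), *Mettl8* and *Armt1*, and *Ddx4* to *Zfp850* (0.959), *Slc27a2* and *Nbn*.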

How the data were processed

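Processed gene tables of 36 mouse RNA-seq libraries were used, 6 of whole gonads and 30 of sorted PGCs, in 12 groups of 3. The authors made the gonad tables with HISAT2 and StringTie and aligned PGC reads with STAR to mm39. TPM values were deposited by the authors, corrected for transcript length with an equal sum for all libraries. FPKM values were deposited by the authors, scaled for transcript length and mapped fragments. Coverage, a signal deposited by the authors, is the mean depth over the bases of a transcript and was not scaled. The labels also name featureCounts and DESeq2, but read counts were not used here. Dividing coverage by FPKM recovered how many bases were aligned per library, between 3.25 and 8.32 gigabases. Counting error per gene could not be computed from these units.

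TPM was taken as log2(TPM + 1), and limma 3.58.1 (lmFit and eBayes with a trend, R 4.3.3) was run on genes whose mean reached 1 TPM in a compared group, with p adjusted by Benjamini and Hochberg over all genes tested. Tables and figures were made with Python 3.11.15, numpy 2.4.6, pandas 2.3.3 and matplotlib 3.10.9. IUHG was compared with control at each stage and sex, control groups were compared by stage and sex, and interaction terms tested sex at E13.5 and stage in each sex. Thresholds were an adjusted p under 0.01 with a log2 fold change beyond 1 for PGCs, 0.05 with at least 1 for gonads, and 0.01 for interactions. The authors do not state an adjustment for PGCs, so the adjusted p was a choice made here, and the unadjusted p was an alternative. The procedure was tested on simulated data. The 10 members and the lists beside them (further PGC genes, partners of the RNA-binding members, germline programme, KIT signalling, and markers of germ, Sertoli, interstitial, pregranulosa, endothelial and blood cells, with sex-linked transcripts) were chosen with earlier results of these data known. Named genes were all members in each comparison, *Pou5f1*, *Nanog*, *Sox2* and *Sall4*, the called genes of each list (at most 3 rising and 3 falling per comparison by lowest p), the most abundant and defining marker of each marker list, and the 3 genes with the highest Pearson r to each member. Alternatives were a pseudocount of 0.1, no filter, FPKM, quantile normalization, median-of-ratios scaling, a replicate block, other thresholds, a fit over all PGC groups, and leaving out each library in turn.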

Additional observations from a re-analysis of the deposited data

Results flagged for a closer look

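The results below were singled out because the IUHG effect differed between groups by an interaction term (limma, adjusted p under 0.01). Between the sexes at E13.5, as female minus male log2 fold change, *Dnd1* differed by 1.36 and *Dppa4* by 1.17. Between the stages in females, as E16.5 minus E13.5, *Dnd1* differed by -2.25 and *Dppa4* by -1.39. Between the stages in males the differences were -0.90 for *Tfap2c*, 0.88 for *Nanos3*, 0.55 for *Dnd1*, 0.44 for *Dazl*, 0.46 for *Ddx4* and 0.70 for *Dppa4*. The E13.5 groups are shared between the sex and stage interactions.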

How the results depend on the processing

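Of 148 pairs of a member and a comparison that were tested, 49 were called and 99 were not. None of the called pairs changed sign under any alternative with limma, 12 of the others did, and 34 were called under every alternative. The 49 mix control stage and sex comparisons with IUHG comparisons and interactions, so these totals do not describe the IUHG calls alone. Some alternatives lost these IUHG calls: *Tfap2c* in E13.5 females, *Nanos3* in E13.5 males, *Kit* in E16.5 females, and *Tfap2c* and *Dppa2* in gonads. Numbers of members called are given below. With an adjusted p under 0.05 and no fold threshold they went from 0 to 2 at E12.5, 1 to 2 in E13.5 females, 2 to 7 in E13.5 males, 1 to 3 in E16.5 females and 0 to 1 in E16.5 males. The same threshold gave 9 in place of 5 for control E13.5 females against E12.5, 8 in place of 2 for males, 8 in place of 4 between the sexes at E13.5, and 4 in place of 2 for the sex interaction. Looser thresholds also call more of all genes, so these counts are not a result about the members. For scale, 6351 of all 14473 genes had an unadjusted limma p under 0.05 for IUHG in E13.5 males, and 8 of 10 members. For control E13.5 females against E12.5 these were 9619 of 15383 genes and 9 of 10 members. With an unadjusted p under 0.01 there were 4 in E13.5 females, 2 in E16.5 females, 4 for the sex interaction and 4 for the female stage interaction. With no filter, which tests more genes, there were 0 in E13.5 females, 0 in E16.5 females and 0 in gonads. FPKM gave 1 in E13.5 males and 2 in E16.5 females, a pseudocount of 0.1 gave 0 in E16.5 females, and median-of-ratios scaling gave 0 for the sex interaction. The replicate block, which takes libraries of the same number as a pair, gave 0 in E16.5 females. Between libraries of the same number, r ran from -0.08 to 0.13 over the comparisons. A fit over all PGC groups gave 3 in E13.5 females, 1 in E13.5 males, 2 in E16.5 females, 5 for the female and 1 for the male stage interaction. The 4 and 5 for the female stage interaction include *Prdm1*, which reached the filter through E13.5 alone.

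Leaving out each library in turn, which tests with fewer samples, gave from 0 to 2 in E13.5 females, 1 to 2 in E13.5 males, 0 to 1 in E16.5 females and 1 to 3 in gonads. It gave 2 to 3 for control E13.5 males against E12.5, 2 to 4 for the sex interaction, 2 to 3 for the female and 5 to 6 for the male stage interaction. Over all genes, leaving out 1 library gave 6 to 34 called at E12.5 (34 as reported) and 1 to 428 in E13.5 females (85). It gave 511 to 563 in E13.5 males (567) and 11 to 118 in E16.5 females (138). In E16.5 males it gave 17 to 29 (42), and in gonads 38 to 110 (111). Over all alternatives together, the called count ran from 2 to 217 at E12.5 and 1 to 1358 in E13.5 females. It then ran from 321 to 4813 in E13.5 males and 10 to 1659 in E16.5 females. In E16.5 males it was 9 to 1241, and in gonads 5 to 449. For the interactions, leaving out 1 library gave 228 to 1642 called by sex (557 as reported). By stage it gave 196 to 771 in females (397) and 1220 to 1741 in males (1800). Over all alternatives together these ranges were 228 to 2354, 196 to 2607 and 414 to 3931, in that order. Scaling moved the split of higher and lower genes most for control E16.5 against E13.5 males, from 7832 and 2594 to 6411 and 3793 with median-of-ratios scaling and 3903 and 4659 with quantile normalization. For control E13.5 females against E12.5 the split went from 2851 and 1057 to 1966 and 1707, and to 1660 and 1706. Between the sexes at E13.5 it went from 3213 and 1470 to 2126 and 2204, and to 2109 and 2134. Except where fewer samples or more genes tested are named, the cause was not tested.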
